A study of Mus musculus with 8 samples.

Results

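Calcium removal genes of the mouse heart were followed through 3 genotypes: the sarcoplasmic reticulum calcium pump SERCA2 (Atp2a2), its inhibitor phospholamban (Pln), the sodium-calcium exchanger (Slc8a1), the plasma membrane calcium pumps Atp2b1 and Atp2b4, the regulators Camk2d and S100a1, and the mitochondrial uniporter pore Mcu. They were chosen by symbol for their known role in clearing calcium from the cytosol, with earlier results of these data known. Each of the 8 was found among the 24516 symbols of the count table. All 8 also passed the filter on low counts, which left 15075 genes to test. The study deleted a conserved enhancer of Actn2, the gene of the Z-disc protein alpha-actinin 2, in mice with CRISPR/Cas9, and sequenced RNA of whole hearts at postnatal day 40. Wild-type hearts (n = 2) carried no deletion, heterozygous hearts (n = 3) carried it on 1 allele, and homozygous hearts (n = 3) on both. Per the labels the hearts shared a litter. The labels name no founder line, clone, strain or sex, and do not say how many founders the deletion mice came from. Where nothing more is said about separate animals, p-values measure only the spread between these samples, which may be technical.

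A cardiac myocyte relaxes when calcium leaves the cytosol. Most of it is pumped back into the sarcoplasmic reticulum by SERCA2, which unphosphorylated phospholamban holds back, and phosphorylation of phospholamban by protein kinase A or CaMKII releases the pump. The sodium-calcium exchanger carries most of the remainder out across the sarcolemma, while the plasma membrane pumps and the mitochondrial uniporter move smaller amounts in mouse heart.

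Libraries held 22230090 to 55902737 counts. Levels are given as counts per 1e6 counts of a library (CPM) after TMM scaling, and differences as log2 fold changes with the standard error (SE) of a fit over all 8 libraries. Wild type 2 stood apart: on the first principal component, which held 35.9% of the variance of the 1000 most variable genes, it lay at 61.4, wild type 1 at 10.8 and the 6 deletion libraries between -14.2 and -7.90. Differences from wild type also followed gene properties. Splitting genes into 4 equal groups by each property, the group with the longest transcripts had a median log2 fold change of 0.35 in homozygous hearts, and the group with the highest GC content one of -0.38. For the 8 genes, results that change, and for other named genes, calls that are lost, when a wild-type library is left out, or when the trends with GC content, transcript length and length of the 3' UTR are removed as an offset in each library (the gene property offset), are given beside the gene. With 1 wild-type library removed, the single library that stays is assumed to vary like the deletion groups.

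In homozygous hearts 5 of the 8 genes rose (Atp2a2, Pln, Slc8a1, Atp2b1 and Camk2d) and 0 fell, by the quasi-likelihood test of edgeR after adjusting p-values over every gene tested (Benjamini-Hochberg). Of all genes tested, 15.3% were higher and 12.4% lower in that comparison. In heterozygous hearts the same 5 genes rose and 0 fell, against 15.2% higher and 12.8% lower among all genes. The median log2 fold change of the 8 was 0.80 in both comparisons, and the median over all genes was -0.03. Both comparisons use the same 2 wild-type libraries, so they are not independent of each other. With the gene property offset 3 of the 8 were higher in homozygous and 4 in heterozygous hearts, against 8.62% and 7.95% of the 14122 genes with all properties. In bulk tissue, fewer cells of a type and less RNA per cell cannot be told apart.

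**Figure D1:**
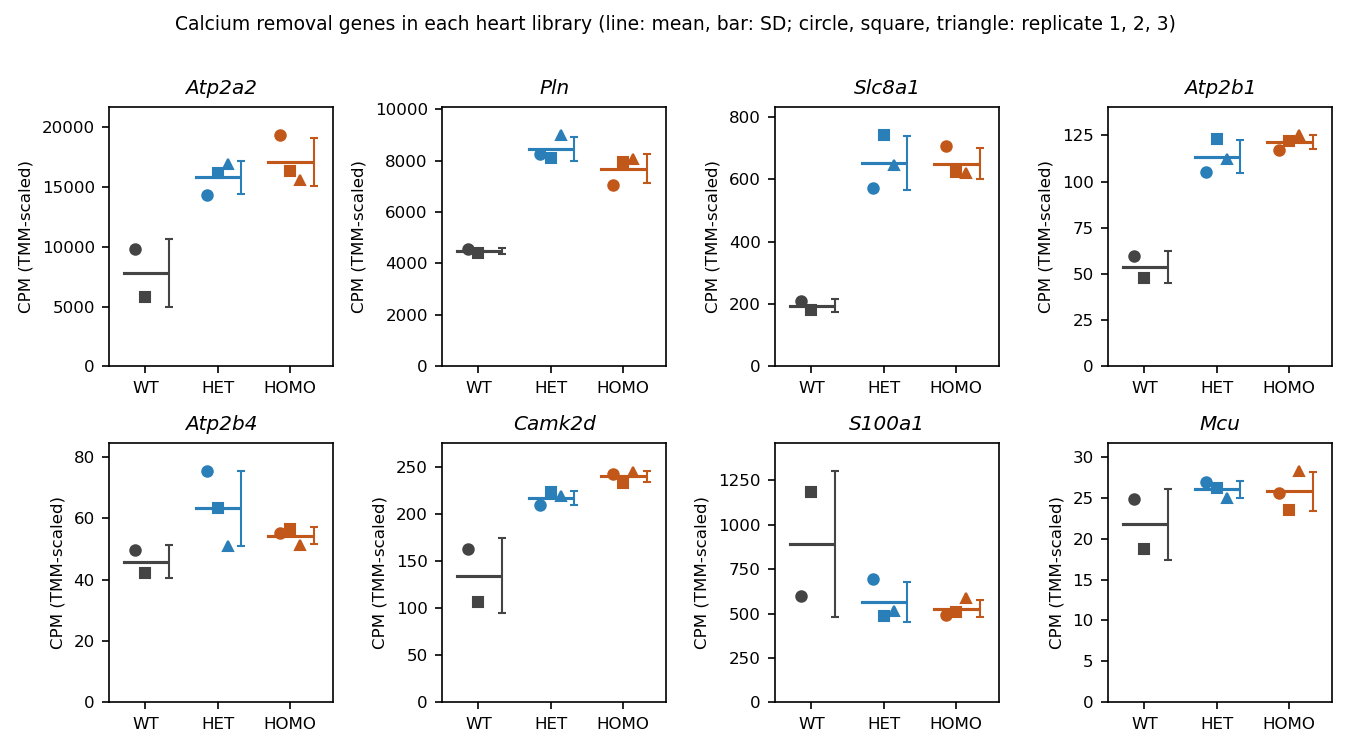
TMM-scaled CPM of the 8 calcium removal genes in each of the 8 heart libraries, by genotype (WT, HET and HOMO for wild type, heterozygous and homozygous). Points are libraries, lines are means and bars are 1 SD. The deletion libraries lie above both wild-type libraries for Atp2a2, Pln, Slc8a1, Atp2b1 and Camk2d, and wild type 2 lies far above the rest for S100a1.

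Atp2a2 (ENSMUSG00000029467.15, mm10 chromosome 5, 122453513 to 122502225, minus strand) encodes the SERCA2 pump. It was at 9817 and 5779 CPM in wild type 1 and 2, at 14273, 16162 and 16907 CPM in the heterozygous libraries, and at 19336, 16272 and 15588 CPM in the homozygous libraries. Every deletion library was above both wild-type libraries, and the wild-type pair differed from each other more than any pair of heterozygous libraries did. The mean of the wild-type pair was 7798 ± 2856 CPM (SD, n = 2), that of the heterozygous hearts 15780.3 ± 1358 CPM and that of the homozygous hearts 17065 ± 1996 CPM (SD, n = 3 each). The rise was 2.02-fold in heterozygous hearts (log2 1.02, SE 0.22, adjusted p = 0.00741) and 2.19-fold in homozygous hearts (log2 1.13, SE 0.22, adjusted p = 0.00494). Its size depended on the wild-type library used. The homozygous log2 fold change was 0.83 without wild type 2 (adjusted p = 0.0104) and 1.57 without wild type 1, and the heterozygous one 0.72 (adjusted p = 0.0182) and 1.46. With the gene property offset the values were 1.01 and 0.94 (adjusted p = 0.00673 and 0.00961). The Atp2a2 transcript took between 0.545% and 1.91% of all counts of a library and ranked between the 2nd and the 13th most counted gene.

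Pln (ENSMUSG00000038583.13, mm10 chromosome 10, 53337667 to 53345987, plus strand) encodes phospholamban, the small membrane protein that inhibits SERCA2. Its levels were 4565 and 4415 CPM in wild type, 8250, 8098 and 8999 CPM in heterozygous and 7041, 7960 and 8057 CPM in homozygous hearts. The wild-type libraries were close together and all 6 deletion libraries lay above them. The means were 4490 ± 105.9 CPM (SD, n = 2), 8449 ± 482 CPM and 7686 ± 560.5 CPM (SD, n = 3 each). Pln rose 1.88-fold in heterozygous hearts (log2 0.91, SE 0.14, adjusted p = 0.00144) and 1.71-fold in homozygous hearts (log2 0.78, SE 0.14, adjusted p = 0.00335). Leaving out a wild-type library changed these values little (0.79 and 0.81 in homozygous, 0.92 and 0.94 in heterozygous hearts, without wild type 2 and 1). The gene property offset lowered them to 0.39 in homozygous hearts, which did not pass (adjusted p = 0.052), and 0.47 in heterozygous hearts (adjusted p = 0.0278). Pln lies in the group of genes with the lowest GC content. Exons of Cep85l on the opposite strand overlap 141 bases of Pln exons, and the strand setting of the counting is not given in the sources used here. Cep85l had between 0.0816% and 0.261% of the counts of Pln in each library.

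Per kilobase of exon, Pln and Atp2a2 had the highest mean levels of the 8 genes over all libraries, 2599.9 and 2346 CPM per kb, ahead of S100a1 at 912 CPM per kb. Slc8a1 followed at 28.6, Camk2d at 9.12, Atp2b1 at 6.67, Atp2b4 at 4.54 and Mcu at 3.58 CPM per kb. Dividing by the length of 1 chosen transcript instead exchanged the first pair, Atp2a2 at 3180 and Pln at 3073 CPM per kb, and moved Slc8a1 to 169 CPM per kb, since its exon annotation is far longer than that transcript.

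The balance of pump and inhibitor was read from the ratio of their counts within each library, which does not depend on scaling between libraries. The Atp2a2 to Pln count ratio was 2.15 and 1.31 in wild type, 1.73, 2 and 1.88 in heterozygous and 2.75, 2.04 and 1.93 in homozygous hearts. The wild-type libraries spanned most of this range and the groups overlapped. The log2 ratio of the 6 deletion libraries was higher than that of wild type by 0.28 (two-sided exact permutation test, p = 0.429, adjusted over 2 ratios 0.429, smallest p possible 0.0714), and it was -0.08 without wild type 2. The Atp2a2 to Slc8a1 count ratio was 46.9 and 32.1 in wild type, 25, 21.7 and 26.2 in heterozygous and 27.3, 26 and 25.2 in homozygous hearts. All 6 deletion libraries lay below both wild-type libraries, a log2 difference of -0.62 (exact permutation p = 0.0714, the smallest this design can give, adjusted 0.143). Neither difference passed.

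**Figure D2:**
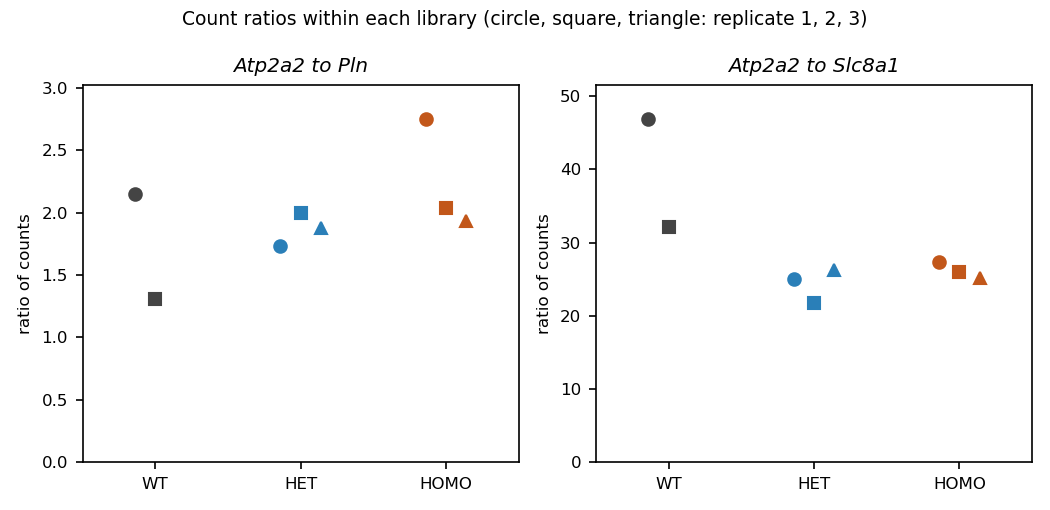
Ratio of Atp2a2 counts to Pln counts (left) and to Slc8a1 counts (right) within each library, by genotype, on axes that start at 0. The pump to inhibitor ratio overlaps between genotypes, while the pump to exchanger ratio is 32.1 and 46.9 in wild type and between 21.7 and 27.3 in the deletion libraries.

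Slc8a1 (ENSMUSG00000054640.15, mm10 chromosome 17, 81373105 to 81738377, minus strand) encodes the exchanger that trades intracellular calcium for sodium. It was at 209.3 and 180.2 CPM in wild type, at 571.6, 743.5 and 645.4 CPM in heterozygous and at 707, 624.8 and 619.7 CPM in homozygous hearts. Among the 8 genes it had the widest gap between wild-type and deletion libraries on the log2 scale. From 194.8 ± 20.56 CPM (SD, n = 2) it rose 3.36-fold in heterozygous hearts, to 653.5 ± 86.21 CPM (log2 1.75, SE 0.16, adjusted p = 0.000137), and 3.34-fold in homozygous hearts, to 650.5 ± 49.03 CPM (log2 1.74, SE 0.16, adjusted p = 0.000148; SD, n = 3 each). Over 17 alternative settings the log2 fold change stayed between 1.67 and 1.86 in homozygous and between 1.63 and 1.86 in heterozygous hearts, and it passed in all of them. The value with the gene property offset was 1.67 in homozygous hearts. For Slc8a1 the offset used a transcript of 3180 bases with a 3' UTR of 170 bases, while its annotated exons cover 18807 bases. That transcript put Slc8a1 in the shortest of the 4 groups by 3' UTR. An offset from a longer transcript was not tested. In rank of counts within a library Slc8a1 went from the 895th gene at its lowest to the 147th at its highest.

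The promoter windows of Pln and Slc8a1 are shown because both genes rose and differ in base composition upstream. The sequences are the 250 bases before the RefSeq start in GRCm38.p6, read 5′ to 3′ on the strand of the gene, with capitals for matches to 6 motifs searched on both strands, the TATA box TATAAA, the GC box GGGCGG, the CCAAT box, the GATA motif AGATAA, the MCAT motif CATTCC and the nuclear receptor half-site AGGTCA. The Pln window is chr10:53337436-53337685 on the plus strand and the Slc8a1 window chr17:81738388-81738637 on the minus strand.
Pln: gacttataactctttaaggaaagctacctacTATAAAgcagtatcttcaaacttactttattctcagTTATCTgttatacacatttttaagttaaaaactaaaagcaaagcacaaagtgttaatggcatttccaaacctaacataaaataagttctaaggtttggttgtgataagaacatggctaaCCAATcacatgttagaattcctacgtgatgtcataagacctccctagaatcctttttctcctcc
Slc8a1: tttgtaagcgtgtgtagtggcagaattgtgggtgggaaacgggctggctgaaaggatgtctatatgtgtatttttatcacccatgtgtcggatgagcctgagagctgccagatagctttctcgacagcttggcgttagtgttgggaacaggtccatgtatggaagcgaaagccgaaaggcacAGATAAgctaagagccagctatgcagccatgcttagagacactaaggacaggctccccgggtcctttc
The Pln window has 32.8% GC and the Slc8a1 window 50.4% GC. In Pln, TATAAA stood 219 to 214 bases before the start, CCAAT 64 to 60 bases, and the GATA motif, as TTATCT, 183 to 178 bases. In Slc8a1 the GATA motif AGATAA stood 68 to 63 bases before the start, and it was the only match of the 6 motifs. AGATAA or its reverse complement was in 9.97% of 32536 windows of this length, TATAAA in 12.3% and CCAAT in 33.8%. Windows were found for 7 of the 8 genes. The upstream windows of Camk2d (68.4% GC) and Atp2b1 (78.4% and 80.8% GC at 2 starts) held GGGCGG matches, which 33% of all windows had, and none of the other 5 motifs. A match is a string of letters in this window and shows no binding.

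Atp2b1 and Atp2b4 encode the plasma membrane calcium pumps PMCA1 and PMCA4, which extrude calcium at the expense of ATP. Atp2b1 (ENSMUSG00000019943.10, chromosome 10, 98914406 to 99026143, plus strand) was at 59.76 and 47.65 CPM in wild type, 105.3, 122.9 and 112.4 CPM in heterozygous and 117.3, 121.7 and 125 CPM in homozygous hearts. The 6 deletion libraries lay above both wild-type libraries. Atp2b1 rose 2.11-fold in heterozygous hearts (log2 1.08, SE 0.13, adjusted p = 0.000546) and 2.26-fold in homozygous hearts (log2 1.18, SE 0.13, adjusted p = 0.000398). It lies in the longest of the 4 groups by transcript and by 3' UTR and in the lowest by GC content, and the gene property offset reduced its values to 0.43 and 0.54 (adjusted p = 0.025 and 0.00996).

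Atp2b4 (ENSMUSG00000026463.17, chromosome 1, 133699457 to 133801041, minus strand) was at 49.66 and 42.21 CPM in wild type, 75.5, 63.4 and 51 CPM in the heterozygous and 55.21, 56.71 and 51.32 CPM in homozygous hearts. Heterozygous 3 and homozygous 3 were close to wild type 1, and the groups were near each other without overlap with wild type. Neither comparison passed (log2 0.46, adjusted p = 0.0579 in heterozygous, and 0.25, adjusted p = 0.292 in homozygous hearts). The heterozygous difference passed without wild type 1 (0.59, adjusted p = 0.0326) or without heterozygous 3 (0.60, adjusted p = 0.0234), with no filter (adjusted p = 0.0462), with DESeq2 (adjusted p = 0.0371) and with the replicate block (adjusted p = 0.0305). Without wild type 2 it was 0.38 (adjusted p = 0.214). With the gene property offset the sign turned, to -0.18 and -0.40, and neither value passed. The difference between Atp2b1 and Atp2b4 was not tested.

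Camk2d (ENSMUSG00000053819.16, chromosome 3, 126596302 to 126846326, plus strand) encodes the delta isoform of CaMKII, the main isoform in heart, which phosphorylates phospholamban. It was at 162.7 and 106.7 CPM in wild type, at 209.4, 223.4 and 218.8 CPM in heterozygous and at 242.4, 233 and 244.2 CPM in homozygous hearts. All deletion libraries were above both wild-type libraries. Camk2d rose 1.61-fold in heterozygous hearts (log2 0.69, SE 0.17, adjusted p = 0.0121) and 1.78-fold in homozygous hearts (log2 0.83, SE 0.17, adjusted p = 0.00566). The values were 0.45 and 0.59 without wild type 2 (adjusted p = 0.0393 and 0.0128) and 1.03 and 1.18 without wild type 1. With the gene property offset neither passed (0.14, adjusted p = 0.529, and 0.30, adjusted p = 0.158).

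S100a1 (ENSMUSG00000044080.9, chromosome 3, 90511034 to 90514392, minus strand) encodes a calcium-binding protein that enhances SERCA2 activity. Its levels were 601 and 1183 CPM in wild type, 694, 485.6 and 514.8 CPM in heterozygous and 492.8, 506.7 and 585 CPM in homozygous hearts. Wild type 2 was the highest library, while wild type 1 lay below heterozygous 1. The log2 fold change was -0.66 in heterozygous hearts (SE 0.26, adjusted p = 0.0812) and -0.76 in homozygous hearts (SE 0.26, adjusted p = 0.0513), and neither passed. These values rested on wild type 2. Without it they were -0.06 and -0.15 (adjusted p = 0.875 and 0.666), and without wild type 1 they were -1.06 and -1.16, where both passed. S100a1 lies in the shortest of the 4 groups by transcript and by 3' UTR, and with the gene property offset the values were -0.05 and -0.12.

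Mcu (ENSMUSG00000009647.13, chromosome 10, 59446984 to 59616692, minus strand) encodes the pore of the mitochondrial calcium uniporter and was the least counted of the 8 genes, with 539 to 1350 counts in a library. It was at 24.83 and 18.68 CPM in wild type, 26.86, 26.2 and 24.9 CPM in heterozygous and 25.5, 23.53 and 28.27 CPM in homozygous hearts. Wild type 1 lay among the deletion libraries and wild type 2 below them. The log2 fold changes of 0.26 in heterozygous and 0.24 in homozygous hearts did not pass (adjusted p = 0.252 and 0.275). The homozygous 95% interval ran from -0.10 to 0.59. Without wild type 1 both passed (0.48 and 0.47, adjusted p = 0.0433 and 0.0468), and without wild type 2 the homozygous value was 0.09 (adjusted p = 0.78).

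**Figure D3:**
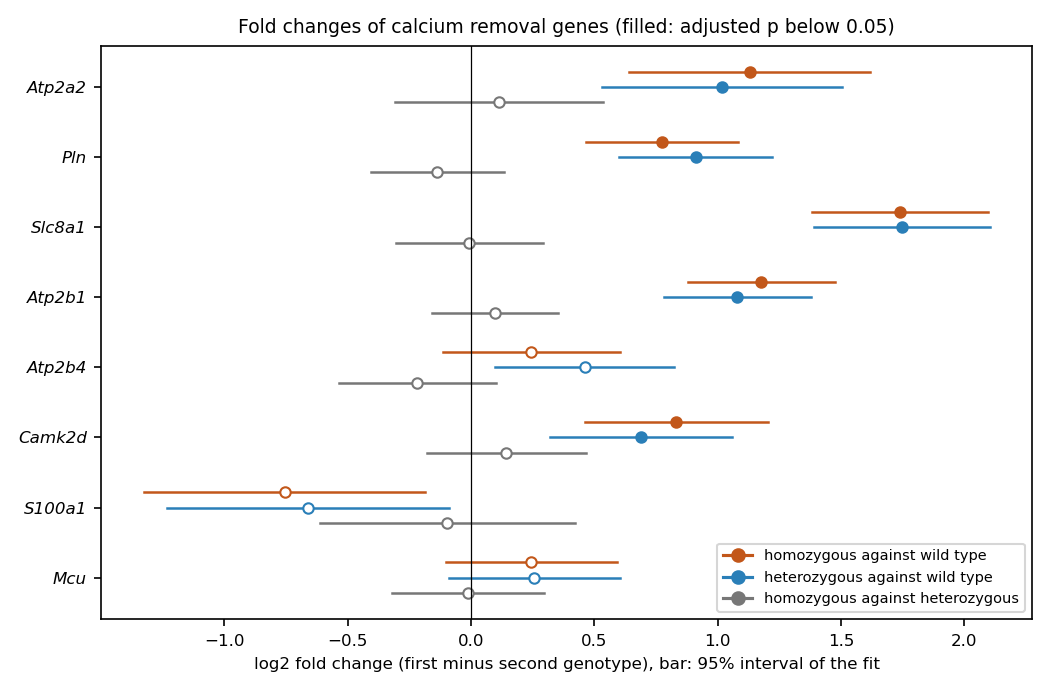
Log2 fold changes of the 8 genes, with 95% intervals of the edgeR fit, in homozygous and heterozygous hearts against wild type, which share the 2 wild-type libraries. Grey points show homozygous against heterozygous hearts. Against wild type, Slc8a1 lies at 1.74 and 1.75, Atp2b1, Atp2a2, Camk2d and Pln between 0.69 and 1.18, and S100a1 below 0.

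Homozygous and heterozygous hearts were also compared directly. None of the 8 genes passed edgeR's quasi-likelihood test (0 of 8, 0% of all genes tested higher and 0% lower, and 411 of 15075 genes at an unadjusted p under 0.05, none of them among the 8). DESeq2 called 3 genes in this comparison and limma-voom 0. The log2 fold change was 0.11 for Atp2a2 (95% interval -0.31 to 0.54), -0.14 for Pln (-0.41 to 0.13) and -0.01 for Slc8a1 (-0.31 to 0.29). It was 0.10 for Atp2b1 (-0.16 to 0.35) and 0.14 for Camk2d (-0.18 to 0.47). These intervals leave room for differences of up to about these bounds between 1 and 2 deleted alleles. For Atp2b4, S100a1 and Mcu the values were -0.22, -0.10 and -0.01, with intervals from -0.54 to 0.10, -0.61 to 0.42 and -0.32 to 0.30.

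**Figure D4:**
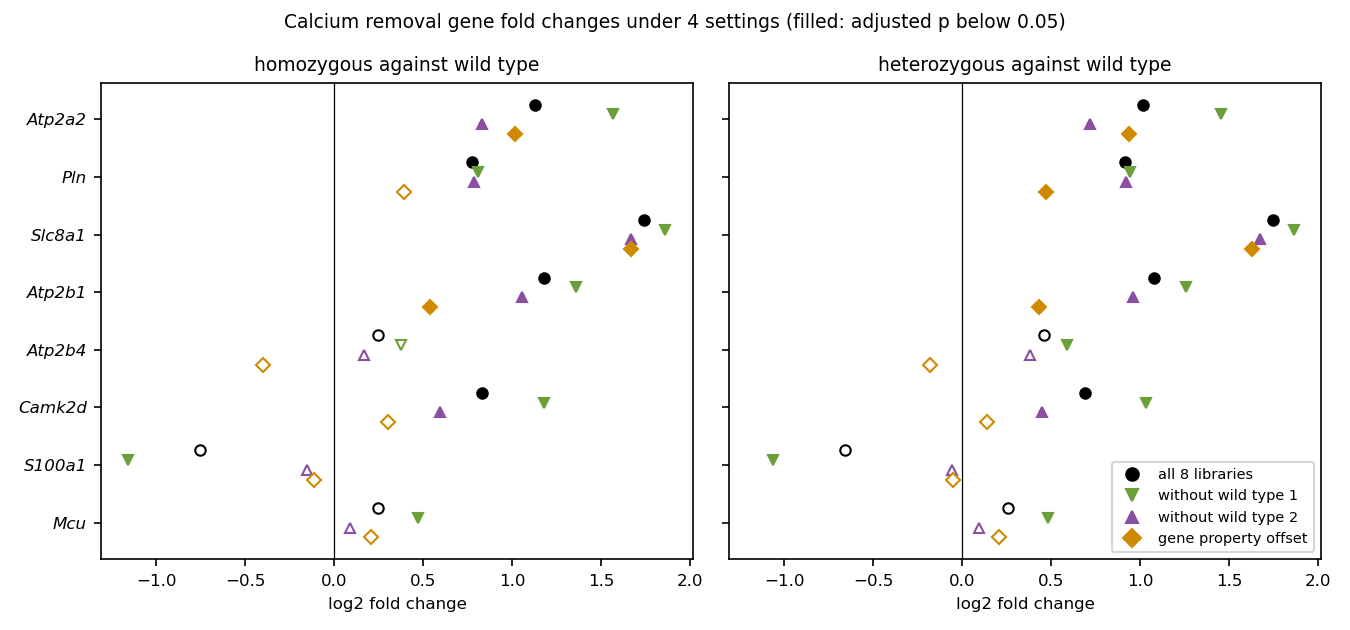
Log2 fold change of each gene against wild type in the fit as reported, without wild type 1, without wild type 2 and with the gene property offset, homozygous and heterozygous. The values of Slc8a1 stay between 1.63 and 1.86, those of Pln, Atp2b1, Atp2b4 and Camk2d are lower with the gene property offset, and those of S100a1 spread from -1.16 to near 0.

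The profiles of the 8 genes over the libraries were compared by the root mean square difference of their centred log2 CPM. Atp2a2 and Atp2b1 were the closest pair (0.16), followed by Atp2b1 and Camk2d (0.171), Atp2a2 and Camk2d (0.174) and, among the genes that did not pass, Atp2b4 and Mcu (0.183). S100a1 lay at 0.538 to 1.1 from the other 7 genes, and Slc8a1 and S100a1 were the most distant pair (1.1). Among 8900 genes with a mean of at least 10 CPM, those most like Atp2a2 over the 8 libraries were Lmtk2 (0.0761), Dnajc16 (0.0815) and Stk24 (0.0969). Those most like Pln were Zfp229 (0.0336), Selt (0.0475) and Csgalnact2 (0.0478), and those most like Slc8a1 were Prkaa2 (0.112), Lrba (0.122) and Kpna1 (0.122).

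The lists of other genes that follow are read against the shares over all genes tested, 15.3% higher and 12.4% lower in homozygous and 15.2% higher and 12.8% lower in heterozygous hearts. Of 11 tested genes for other SERCA pumps, SERCA-binding small proteins and associated proteins, 1 rose and 2 fell in homozygous hearts (median log2 fold change 0.00) and 2 rose and 2 fell in heterozygous hearts (median 0.18), which is near those shares. Srl, sarcalumenin, a calcium-binding protein that stabilises SERCA, rose 1.88-fold in homozygous (adjusted p = 0.00261) and 1.74-fold in heterozygous hearts (adjusted p = 0.00437). Atp2a3, the SERCA3 pump found mainly outside cardiac myocytes, fell to 17.13 and 19.31 CPM from 35.96 CPM in wild type (adjusted p = 0.00911 and 0.0194). Removing wild type 2 ended both calls (adjusted p = 0.0853 and 0.154), and the heterozygous one with the offset (adjusted p = 0.0909). Sln, sarcolipin, an atrial SERCA inhibitor related to phospholamban, had 228 counts over the 2 wild-type libraries, 0 in the heterozygous libraries and 6 in 1 homozygous library. Heterozygous hearts were at least 114-fold lower, with the group's total set to 3 counts, a bound on counting error alone. The other 4 tested markers of atrial cardiomyocytes that passed fell too: 5 of 7 tested atrial markers were lower in each comparison, with summed levels of 374 to 638 CPM in wild type, 130 to 457 CPM in heterozygous and 145 to 400 CPM in homozygous hearts. Most of that sum was Nppa, which did not pass (282.6 and 514.3 CPM in wild type, 93.1 to 415.2 CPM in the deletion libraries). In wild-type, heterozygous and homozygous hearts the mean of Myl7 was 10.42, 0.50 and 0.27 CPM, and that of Myl4 16.95, 2.13 and 1.83 CPM. Dkk3 was at 25.62, 3.31 and 3.34 CPM and Stard10 at 29.89, 17.17 and 16.72 CPM. The part of atrial tissue in the fall of Sln was not tested. Tmx1, an oxidoreductase that inhibits SERCA2, rose in heterozygous hearts only by its own test (2.38-fold, adjusted p = 0.0084, and 1.48-fold, adjusted p = 0.14, in homozygous hearts), and the heterozygous call was lost without either wild-type library or with the offset (adjusted p = 0.0674, 0.098 and 0.0596). The small SERCA-binding proteins Mrln, Arln (listed as 1810037I17Rik) and Erln (listed as Smim6) did not pass in either comparison. In homozygous and heterozygous hearts Arln was at log2 0.06 and 0.13, Mrln at -0.94 and -1.19 and Erln at -0.81 and 0.42. Mrln and Erln were little counted, with wild-type means of 1.48 and 0.57 CPM.

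Among 9 calcium-binding proteins of the sarcoplasmic and endoplasmic reticulum lumen, 3 rose and 0 fell in each comparison (medians -0.05 and -0.13). Casq2, cardiac calsequestrin, the main calcium store of the reticulum, was at 705 and 466.2 CPM in wild type, 1413, 1233 and 1156 CPM in heterozygous and 1188, 1104 and 1294 CPM in homozygous hearts. All deletion libraries were above wild type, and Casq2 rose 2.16-fold in heterozygous (adjusted p = 0.00246) and 2.04-fold in homozygous hearts (adjusted p = 0.00384), and passed with the gene property offset as well (1.02 and 0.96). Asph, which encodes junctin and related proteins, rose 1.82-fold and 1.70-fold, and Calu, calumenin, 1.58-fold and 1.5-fold. With the offset Asph passed in neither comparison (log2 0.30 and 0.21, adjusted p = 0.169 and 0.329), and Calu passed in heterozygous hearts alone (0.38 and 0.34, adjusted p = 0.0425 and 0.0596). Hrc, the histidine-rich calcium-binding protein, did not pass (log2 -0.33 and -0.05), nor did Casq1 (-2.01 and -1.10, adjusted p = 0.0536 and 0.234). Casq1 was at 75.69 CPM in wild type 1 and 14.17 CPM in wild type 2. It passed without wild type 2 (-2.73 and -1.82, adjusted p = 0.00404 and 0.0197), and without wild type 1 it was at -0.34 and 0.57.

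Of 16 genes that set the phosphorylation of phospholamban, 8 rose and 0 fell in homozygous hearts (median 0.43), and 9 rose and 1 fell in heterozygous hearts (median 0.51), against the 15.3% and 15.2% higher among all genes. With the gene property offset 5 of the 16 rose in each, against 8.62% and 7.95%. Pde3a, a phosphodiesterase that breaks down cyclic AMP near SERCA2, was at 17.35 and 12.75 CPM in wild type, 83.99, 117.5 and 100.8 CPM in heterozygous and 84.06, 86.16 and 102.3 CPM in homozygous hearts. No deletion library came near wild type, and the rise was 6.70-fold and 6.04-fold (adjusted p = 4.98e-05 and 5.6e-05), at log2 1.87 and 1.76 with the offset. Ppp1r3a, a subunit that targets protein phosphatase 1 to glycogen and the sarcoplasmic reticulum, rose 4.73-fold and 3.88-fold (adjusted p = 8.27e-05 and 0.00017). Prkar2a, a regulatory subunit of protein kinase A, rose 3.44-fold and 3.43-fold (adjusted p = 0.000336 and 0.000372). The catalytic subunits Ppp1cb of phosphatase 1 (1.89-fold and 1.88-fold) and Prkacb of protein kinase A (1.54-fold and 1.65-fold) rose too, as did the regulatory subunit Prkar1a (1.49-fold and 1.52-fold), and none of these 3 passed with the offset. Prkacb in heterozygous hearts was also lost without wild type 2 (adjusted p = 0.0564). Hspb6, a small heat shock protein that binds phosphatase 1, was the 1 gene of the list that fell in heterozygous hearts (log2 -0.54, adjusted p = 0.0409), a call lost without wild type 1 or 2 and with the offset (adjusted p = 0.0643, 0.106 and 0.752). The list thus held rises on both the kinase and the phosphatase side. RNA levels give no measure of phosphorylation.

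Among 12 other CaMKII, calmodulin and calcineurin genes, 3 rose and 0 fell in homozygous hearts (median 0.15), and 3 rose and 1 fell in heterozygous hearts (median 0.09). The 3 were Ppp3cb and Ppp3r1, subunits of calcineurin, at 1.49-fold and 1.55-fold in homozygous hearts (adjusted p = 0.0102 and 0.00753), and its regulator Rcan2 at 1.55-fold (adjusted p = 0.0228). Rcan2 did not pass without wild type 2 (adjusted p = 0.108 in homozygous and 0.0851 in heterozygous hearts), nor did Ppp3cb in heterozygous hearts (0.0558), and none of the 3 passed with the offset. Ppp3ca, the other catalytic subunit, fell in heterozygous hearts (log2 -0.57, adjusted p = 0.033), which was lost without wild type 2 (-0.20). The CaMKII isoforms Camk2a and Camk2g did not pass in either comparison, at log2 0.38 and 0.19 in homozygous and 0.18 and -0.16 in heterozygous hearts.

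At the sarcolemma, 1 of 10 tested partners and relatives of the exchanger and pumps rose and 1 fell in each comparison (medians -0.09 in homozygous and -0.23 in heterozygous hearts). Ank2, ankyrin-B, which anchors the exchanger and the sodium pump, rose 1.77-fold in homozygous (adjusted p = 0.00339) and 1.60-fold in heterozygous hearts (adjusted p = 0.00756). With the offset Ank2 was at log2 0.38 and 0.26, and the heterozygous call was lost (adjusted p = 0.0426 and 0.144). Fxyd1, phospholemman, a regulator of the sodium pump and the exchanger, fell from 385.4 ± 55.59 CPM (SD, n = 2) to 240.8 ± 12.65 and 215.4 ± 11.22 CPM (SD, n = 3 each, adjusted p = 0.00476 and 0.00163). With the offset Fxyd1 was at log2 0.03 and -0.14, and both calls were lost (adjusted p = 0.895 and 0.5). Atp1b1, the beta subunit of the sodium pump, and Bsg, a partner of the plasma membrane pumps, did not pass. Atp1b1 was at log2 0.74 and 0.70 (adjusted p = 0.0568 and 0.068) and passed without wild type 1, as did Bsg in the lower direction (-0.66 and -0.63, adjusted p = 0.00337 and 0.00449). With the offset Bsg was at 0.10 and 0.14. Atp2c1, the calcium pump of the Golgi, rose 1.60-fold and 1.52-fold (adjusted p = 0.0057 and 0.0094). With the offset Atp2c1 was at 0.15 and 0.05, and both calls were lost (adjusted p = 0.394 and 0.795).

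Around Mcu, 6 of 16 genes of mitochondrial calcium uptake and efflux rose and 2 fell in homozygous hearts (median -0.04), and 4 rose and 2 fell in heterozygous hearts (median 0.16). Smdt1, which encodes EMRE, the small subunit that the uniporter needs for transport, was at 164.3 and 244.8 CPM in wild type and between 99.05 and 114.1 CPM in the deletion libraries. It fell to 0.545 of wild type in homozygous hearts (adjusted p = 0.00311) and to 0.516 in heterozygous hearts (adjusted p = 0.0019), and with the offset it was at log2 -0.15 and -0.23 and did not pass. Yme1l1, an inner membrane protease, rose 1.96-fold and 1.99-fold, and Afg3l2, a subunit of the m-AAA protease that clears unassembled EMRE, 1.44-fold and 1.29-fold. Tmem65, a protein tied to mitochondrial sodium-calcium exchange, rose 1.80-fold in each comparison (adjusted p = 0.00649 and 0.00608), and Ghitm, an inner membrane protein, 1.54-fold and 1.53-fold. With the offset Tmem65 (0.54, adjusted p = 0.0447) and Afg3l2 (0.64, adjusted p = 0.00561) passed in homozygous hearts, while Yme1l1 and Ghitm did not. In heterozygous hearts Tmem65 was lost with the offset (adjusted p = 0.0542) and Afg3l2 without wild type 2 (adjusted p = 0.0712). Spg7, the other m-AAA subunit, fell in heterozygous hearts (log2 -0.57, adjusted p = 0.00819), a call lost with the offset (-0.25, adjusted p = 0.199) and without wild type 2 (-0.44, adjusted p = 0.0551). Mcub (listed as Ccdc109b), an inhibitory relative of Mcu, fell in homozygous hearts from 3.13 to 1.29 CPM (adjusted p = 0.0419), and the call was lost without wild type 1 or 2 and with the offset (adjusted p = 0.0958, 0.111 and 0.169).

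Of 9 other S100 genes tested, 5 fell and 0 rose in homozygous hearts (median -0.75), and 3 fell and 0 rose in heterozygous hearts (median -0.66). S100a16, S100a10 and S100a11 fell in both comparisons, at log2 -0.58, -0.73 and -0.63 in homozygous and -0.48, -0.45 and -0.50 in heterozygous hearts, and S100a6 and S100a13 in homozygous hearts (-1.30 and -0.87). Without wild type 2, the homozygous count was 2 (S100a16 and S100a10) and the heterozygous count 0, and with the offset both counts were 0.

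**Figure D5:**
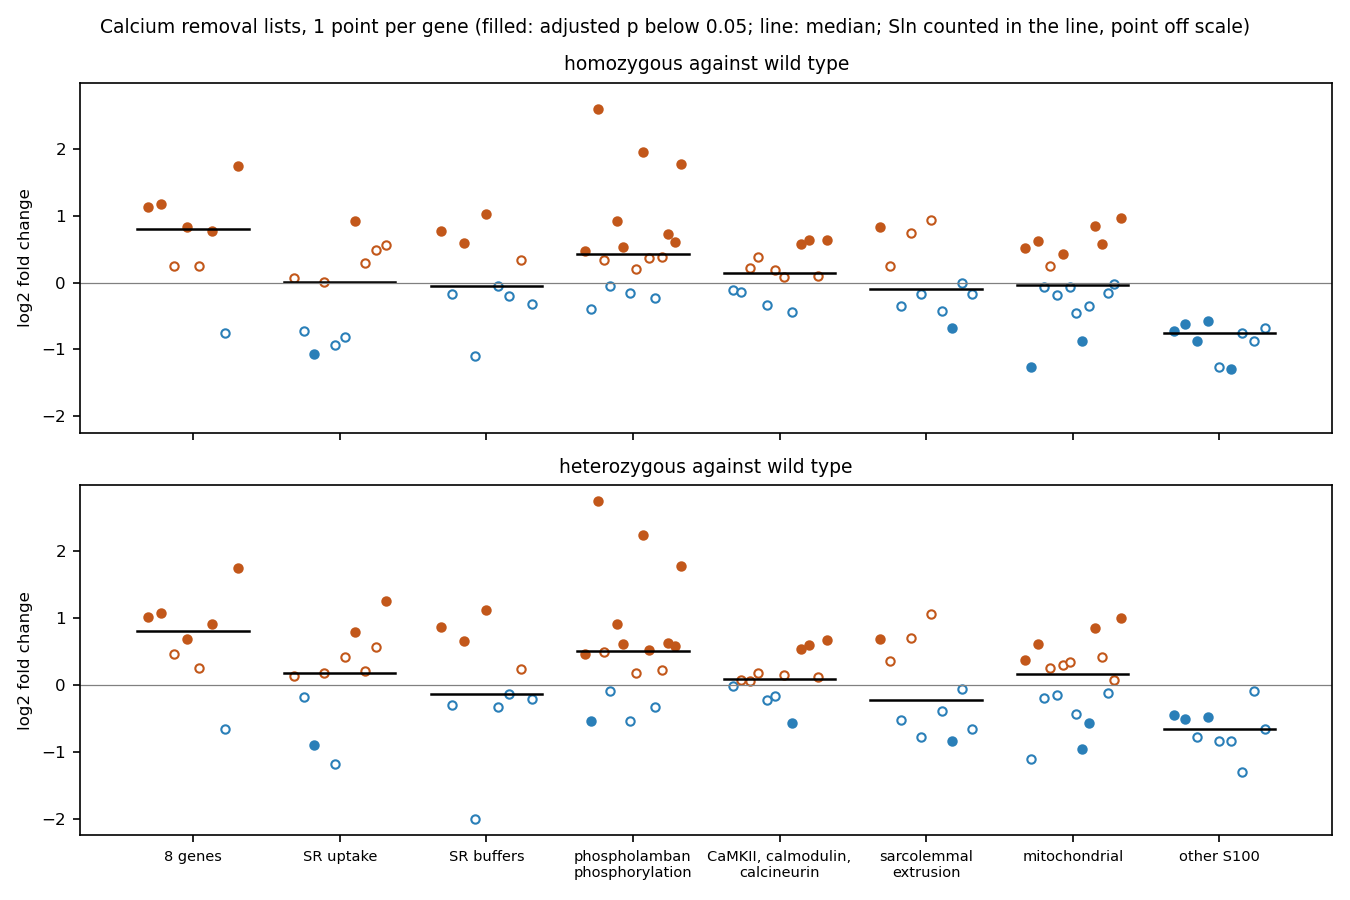
Log2 fold change against wild type of each tested gene in the lists around the 8 genes (points) and the list medians (lines, which include Sln, whose points are off the scale), for homozygous and heterozygous hearts. The phospholamban phosphorylation list has the medians 0.43 and 0.51, the other S100 genes lie below 0 at the medians -0.75 and -0.66.

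Markers of the cell types a heart holds were read in the same fit. The 8 cardiomyocyte markers summed to between 68245 and 104893 CPM in every library, higher in the wild-type libraries (87746 and above) than in the deletion libraries (76627 and below). Of these 8, Myl2 and Tnni3 fell in both comparisons and Myl3 in heterozygous hearts, and 0 fell without wild type 2 or with the offset. Endothelial markers summed to 1184 and 1197 CPM in wild type and 740 to 977 CPM in the deletion libraries, with 4 and 3 of 8 lower. Smooth muscle and pericyte markers, called smooth muscle markers below, had 3 and 5 of 8 lower. With the offset 3 and 2 were lower in each list. The smooth muscle markers lower in homozygous hearts were Myh11, Tagln and Cnn1. They were at 70.33, 50.59 and 4.935 CPM in wild type 1 and 161.9, 121.1 and 14.69 CPM in wild type 2. Rgs5, the most counted gene of that list, leaned the other way and did not pass (log2 0.15 in homozygous and 0.38 in heterozygous hearts). Without wild type 2 the medians were -0.43 and -0.45 for endothelial and -0.76 and -0.69 for smooth muscle markers. None of the 8 fibroblast markers passed by edgeR's test, and macrophage markers moved in both directions. The 4 globin genes and the skeletal muscle myosin gene Myh4 were at 0 counts in all libraries. Other markers on those lists were counted, the red cell marker Alas2 at 12.2 to 53.81 CPM and the skeletal marker Acta1 at 109.2 to 1083 CPM. Mylpf, also a skeletal marker, fell in homozygous hearts (adjusted p = 0.0435 by edgeR's test). Whether the 0 counts reflect the tissue or the count table was not tested. The part of these cell types in the levels of the calcium removal genes was not tested.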

How the data were processed

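The 8 libraries (wild type n = 2, heterozygous n = 3, homozygous n = 3) were made from heart RNA extracted with Trizol and prepared with a TruSeq kit for a HiSeq 2500, per the labels. The authors deposited raw counts per gene symbol. Per the submitters' processing notes, the tools were Trimmomatic 0.36, HISAT2, featureCounts of Subread and DESeq2, with the mm10 build. How reads mapping to several places were handled, the strand setting and the annotation were not given in the sources used here. Per the series' design text, raw reads of both wild-type samples were lost to file damage, so their counts cannot be remade from reads.

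In R 4.3.3, edgeR 4.0.16 filtered genes with filterByExpr by genotype, scaled the libraries by TMM and fitted all 8 together by robust quasi-likelihood. Tests were two-sided, and a gene passed at a Benjamini-Hochberg adjusted p below 0.05. Library depth (22230090 to 55902737 counts) sets the counting error. Gene models came from GENCODE vM21, which held 98.4% of the symbols, and promoters from RefSeq GRCm38.p6. Strit1, on the list of SERCA-binding proteins, is not analysed here. Profiles were compared on centred log2 CPM (prior count 2).

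The 8 genes, the lists and the tests were chosen with earlier results of these data known. Beside the 8, the genes named are, from each list, up to 4 by smallest p in homozygous and up to 2 more in heterozygous hearts against wild type, SERCA-binding small proteins, and the 3 most like profiles. Hspb6, Mcub, Cep85l and the markers Myl2, Myl3, Tnni3, Myh4, Alas2, Acta1, Mylpf, Myh11, Tagln and Cnn1 were named after their values were seen. So were the markers Nppa, Myl7, Myl4, Dkk3, Stard10 and Rgs5. Values of 2 genes that the rule selects are not reported here, though list counts hold them.

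Alternatives were DESeq2 size factors, total counts, no filter, at least 1 CPM in 2 libraries, DESeq2 1.42.0, limma-voom 3.58.1, only the genotypes compared, the replicate number as a block, the gene property offset (splines with 4 df) and single libraries removed in turn. The offset combined with removal of a wild-type library was added after seeing the data. The fit and the offset were also run on simulated counts. Those held no wild-type library that stands apart. Their gene property trend followed the length of the 3' UTR alone and was equal in both wild-type libraries. They therefore do not test the fit under the outlying library and the unequal trends of these data.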

Additional observations from a re-analysis of the deposited data

How the results depend on the processing

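Atp2a2, Slc8a1 and Atp2b1 passed in both comparisons with wild type in all 17 alternatives below that change 1 choice; among these, Pln in homozygous hearts and Camk2d in both lost their calls with the gene property offset alone. The cause was not tested. With the offset, the higher calls among the 8 genes in homozygous hearts were 3, genes called in all were 2047 and 1910 (homozygous and heterozygous against wild type), Atp2b4 was at -0.398 and -0.181, and Slc8a1 homozygous against heterozygous at 0.043. With the offset and without wild type 1, Atp2b4 was at -0.422 and -0.201, that Slc8a1 value at 0.044, and 2 genes differed between the deletion genotypes. With the offset and without wild type 2, higher calls were 3 and 2, genes called 759 and 732, Atp2b4 -0.376 and -0.154, S100a1 0.148 and 0.214, heterozygous Camk2d -0.047, Slc8a1 between the deletion genotypes 0.044, and genes called there 2. S100a1 was the 1 lower call among the 8 in homozygous hearts with total counts, the filter of at least 1 CPM in 2 libraries and DESeq2, and in heterozygous hearts with DESeq2 (1).

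Fitting only the genotypes compared gave 2668 genes for heterozygous against wild type. Between deletion genotypes 2 genes were called with no filter and 3 with DESeq2, and Slc8a1 was at 0.005 with no filter and 0.002 with limma-voom. Leaving out 1 library gave 2135 to 5717 genes for homozygous and 2359 to 5634 for heterozygous against wild type, lowest without wild type 2 and highest without wild type 1. Lower calls among the 8 ranged from 0 to 1 in each, and genes called between deletion genotypes from 0 to 1. There Slc8a1 ranged from -0.094 to 0.092, S100a1 from -0.198 to 0.078 and Mcu from -0.084 to 0.046. The Atp2a2 to Pln difference ranged from -0.082 to 0.635. Without homozygous 3, 2564 genes were called for homozygous against wild type.

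Deviations of same-numbered libraries had correlations of -0.023 to 0.177, and those of different-numbered libraries -0.225 to 0.135. The highest values were those of heterozygous with homozygous 1 (0.177) and heterozygous with homozygous 2 (0.138). With 2 wild-type libraries, their deviations from the group mean mirror each other. These few values cannot decide whether the numbers pair the libraries. With the replicate block 3328 and 3376 genes were called against wild type, 5 of the 8 rose in each, and heterozygous Atp2b4 passed (0.545, adjusted p = 0.0305). The 2 wild-type libraries, not read depth, set the smallest p of the ratio tests.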
